A study of Homo sapiens with 6 samples.

Results

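The genes described here are 4 genes named for endogenous retroviruses, ERVWE2, ERVK13-1, ERV3-1 and ERVMER34-1, together with HCP5, a long non-coding RNA gene of the major histocompatibility complex (MHC). They were taken by symbol from a table of 57820 genes, in which each of the 5 symbols had a single row. The set was selected on the levels measured in these same libraries, in which HCP5 and ERVWE2 differ most between the conditions, so the difference of the 5 genes is given as a description and is no test of them. RNA was sequenced from M14, a human melanoma line that stably carries a doxycycline-inducible shRNA against STAG2, the stromal antigen subunit of the cohesin complex. The comparison was between 3 libraries of cells cultured for 5 days with doxycycline (KD) and 3 libraries of the same cells without it (WT), all kept under puromycin. The labels call the WT genotype wild type, but both conditions carry the shRNA. These libraries come from only 1 cell line with 1 shRNA, although the study used further melanoma lines in other experiments. With no library of doxycycline-treated cells lacking the shRNA among these samples, the knockdown and doxycycline cannot be told apart in them. The study describes its replicates as biologically independent, which the labels do not state, and the p-values measure the spread between these libraries.

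Endogenous retroviruses are remnants of ancient germline infections, built of gag, pol and env genes between long terminal repeats (LTRs) that act as promoters. Most are decayed, and those that could still be read are kept silent by KRAB zinc finger proteins with TRIM28 and SETDB1, by the HUSH complex and by DNA methylation. Transcripts from both strands of such elements can form double-stranded RNA, which RIG-I and MDA5 sense to switch on type I interferon. HCP5 lies between MICA and MICB and contains sequence derived from an ancient retroviral element.

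The libraries held between 24895998 and 35181733 expected counts, and 3 counts corresponded to 0.0870 to 0.112 CPM (CPM, counts scaled to the library size by the TMM method). This floor, like the counting intervals given here, covers counting error only. STAG2, the shRNA target, had levels of 66.5, 34.8 and 28.8 CPM in the WT libraries, listed from replicate 1 to 3 here and in what follows, and of 15.96, 7.31 and 6.69 CPM in the KD libraries, a log2 fold change of -2.12 ± 0.43 (SE) with an edgeR adjusted p of 0.0342. That call was lost when any one of 4 libraries was left out, with an adjusted p of up to 0.168, but the log2 fold change stayed between -2.63 and -1.68 over the 6 fits, and the fit with a replicate block gave an adjusted p of 0.000104. IRF9, a subunit of the interferon-activated transcription factor ISGF3, rose from 20.2 ± 1.27 to 127 ± 3.62 CPM (SD, n = 3, log2 fold change 2.66 ± 0.18, adjusted p = 6.49e-05). All 7 melanocyte and melanoma markers examined, MITF, PMEL, MLANA, TYR, DCT, SOX10 and S100B, were at 1 CPM or more in every library. Their sum was 1846 to 6223 CPM in WT and 1188 to 2572 CPM in KD. S100B fell from 145, 106 and 101 CPM in WT to 47.3, 49.5 and 40.8 CPM in KD (adjusted p = 0.00949), and SOX10 was at 572, 671 and 614 CPM in WT and 324, 474 and 366 CPM in KD (adjusted p = 0.151). The markers did not all move alike. TYR was at 380, 140 and 128 CPM in WT and at 367, 227 and 233 CPM in KD, higher in KD in replicates 2 and 3. WT replicate 1 stood apart in its mitochondrial share, with 5.07% of its counts in mitochondrial genes against 2.12% to 2.94% elsewhere. PMEL was highest in replicate 1 of both conditions. It was at 3370, 662 and 684 CPM in WT and at 1254, 358 and 364 CPM in KD. Of 5 leukocyte markers, whose sum was 26.3 to 40.9 CPM in WT and 90.0 to 125 CPM in KD, almost the whole sum was the macrophage marker CD68. The defining leukocyte marker PTPRC was above 0 in a single library, WT replicate 3, at 0.582 CPM, and CD3E was at 0 in all. The part of any of these in the levels described here was not tested.

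On GRCh37, the build of the counts, HCP5 (ENSG00000206337) spans chr6:31430947-31446713 on the plus strand and is annotated as a long non-coding RNA with 7 transcripts. The row named ERVWE2 (ENSG00000233887) is a single exon of 1755 bases at chrX:97102261-97104015, plus strand, annotated as a processed pseudogene. ERVK13-1 (ENSG00000260565) spans chr16:2710349-2732399 on the minus strand and is annotated as a long non-coding RNA with 47 transcripts. ERV3-1 (ENSG00000213462) at chr7:64450734-64467121 and ERVMER34-1 (ENSG00000226887) at chr4:53588785-53617753, both on the minus strand, are annotated as protein-coding and are known for intact envelope reading frames.

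The symbol ERVWE2 names the HERV-W group, whose best known envelope is syncytin-1, the product of ERVW-1, which fuses placental trophoblast cells. The exon at this position, however, shared with the ERVW-1 transcript only a stretch of 95 bases at 73.7% identity in the best local alignment. It holds an open frame of 584 codons from an ATG, against 538 codons for the longest frame of the ERVW-1 transcript. The annotation places the same exon at chrX:97847263-97849017 of GRCh38, inside the RefSeq gene ERVFC1 (chrX:97841746-97849381), an envelope gene of the HERV-F group, and 364 bases before that gene's end. The counts described as ERVWE2 are therefore those of an exon that lies within ERVFC1, and the table's name is kept for them.

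RefSeq promoter windows, 250 bases before to 50 bases after the start on GRCh38.p14, are shown for the genes whose levels differed most between the conditions and for ERVK13-1, the retroviral gene with the highest WT level of the 5. The ERVFC1 window was used for the ERVWE2 row, a choice made after its position was known. Capitals mark 10-base matches to the core of the interferon-stimulated response element (ISRE), which is GAAA, any 2 bases and GAAA again, with a single mismatch. The windows are chr6:31462930-31463229 (plus strand) for HCP5, chrX:97841496-97841795 (plus strand) for ERVFC1 and chr16:2673390-2673689 (minus strand) for ERVK13-1.
HCP5: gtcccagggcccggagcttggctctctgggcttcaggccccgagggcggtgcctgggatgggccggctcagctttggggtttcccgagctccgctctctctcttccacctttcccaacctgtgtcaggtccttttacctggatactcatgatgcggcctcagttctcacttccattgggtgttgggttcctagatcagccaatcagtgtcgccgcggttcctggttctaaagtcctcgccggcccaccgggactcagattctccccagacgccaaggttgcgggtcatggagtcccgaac
ERVFC1: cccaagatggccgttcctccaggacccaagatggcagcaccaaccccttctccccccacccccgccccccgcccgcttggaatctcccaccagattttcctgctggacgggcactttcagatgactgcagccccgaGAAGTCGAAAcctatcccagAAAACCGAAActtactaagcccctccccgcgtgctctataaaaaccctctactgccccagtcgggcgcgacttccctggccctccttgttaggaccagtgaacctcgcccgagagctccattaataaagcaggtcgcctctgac
ERVK13-1: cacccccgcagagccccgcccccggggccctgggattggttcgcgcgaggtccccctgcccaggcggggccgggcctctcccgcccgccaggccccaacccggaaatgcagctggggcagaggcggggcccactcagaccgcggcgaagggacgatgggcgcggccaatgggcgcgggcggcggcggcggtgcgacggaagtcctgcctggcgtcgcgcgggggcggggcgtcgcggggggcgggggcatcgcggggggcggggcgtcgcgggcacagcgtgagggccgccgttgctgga

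On either strand, none of these 3 windows, nor the 2 windows of ERV3-1 and the window of ERVMER34-1, held an exact ISRE core or an exact core of the interferon gamma-activated site, TTCNNNGAA. Among all 35116 promoter windows, 3.57% held the former and 7.66% the latter. With 1 mismatch allowed, the ERVFC1 window held 2 ISRE-like matches, GAAGTCGAAA and AAAACCGAAA, starting 114 and 94 bases before the start site. The second ERV3-1 window (chr7:64999393-64999692, minus strand) held 1, TTTTTCTTTC, on the reverse strand. The HCP5, ERVK13-1 and ERVMER34-1 windows held none, and a match of this kind occurred in 33% of all windows. The windows of HCP5 and ERVFC1 were 61.3% and 59.7% G or C with 16 CpG dinucleotides each, whereas that of ERVK13-1 was 80.7% G or C with 44. These matches describe letters only, and the ISRE and GAS patterns do not cover every site that a factor can bind.

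Upon STAG2 knockdown, the 5 genes showed several patterns. HCP5 and ERVWE2 went from the counting floor in WT to several CPM in every KD library. ERVK13-1 was expressed in both conditions, and ERV3-1 and ERVMER34-1 stayed under 1 CPM in every library. Of the 5, 4 passed the filter on low counts and HCP5 and ERVWE2 were 2 of the genes past an adjusted p under 0.05 in edgeR, whereas limma-voom put 0 of the 5 past it. The edgeR threshold called 2.59% of the 15605 genes tested in either direction, 1.75% as higher and 0.839% as lower in KD. Since the genes were chosen with this contrast known, nothing is read from their count.

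**Figure D1:**
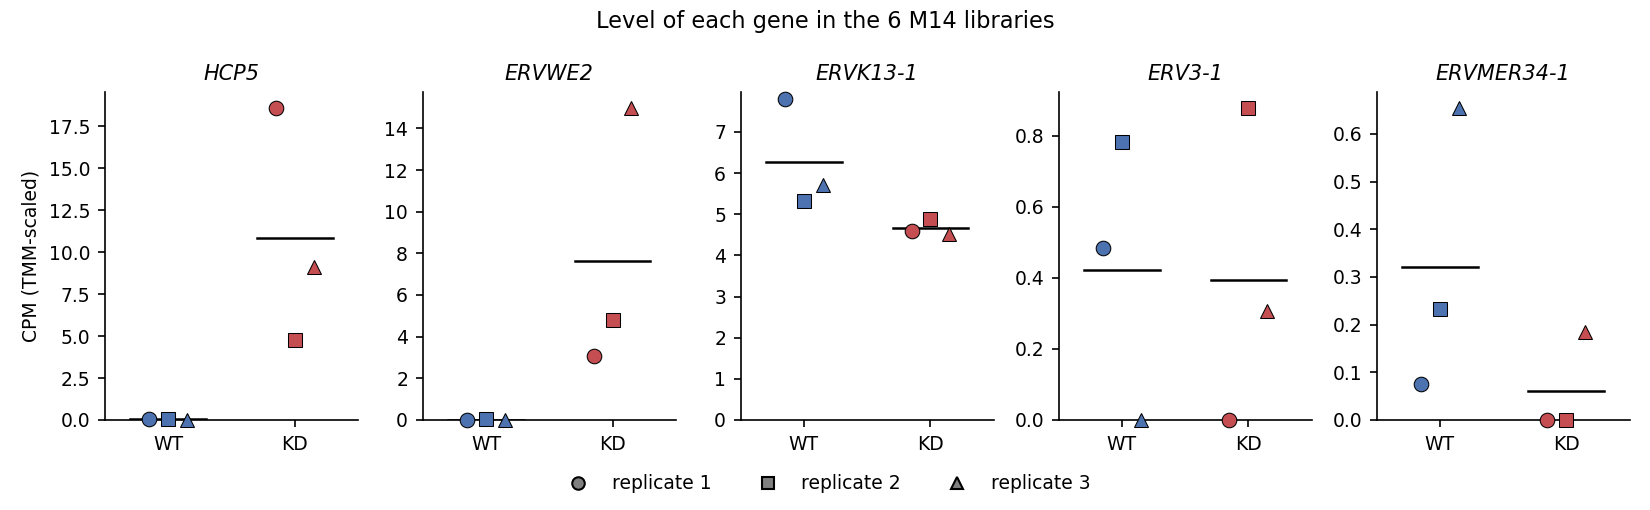
TMM-scaled CPM (linear axes that differ between panels) of the 5 genes in the 3 WT (blue) and 3 KD (red) libraries, with symbols for the replicate number and bars for the group mean. HCP5 and ERVWE2 lay at or below 0.0745 CPM in every WT library and at or above 3.08 CPM in every KD library, while the ERV3-1 values of the conditions overlapped.

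HCP5, the non-coding transcript of the MHC class I region, had expected counts of 2, 2 and 0 in WT and of 598, 140 and 297 in KD. On the scaled level, this was 0.0745, 0.0580 and 0 CPM in WT and 18.6, 4.74 and 9.09 CPM in KD. Every WT library lay under the floor of 3 counts, and the lowest KD library was far above all of them. The group means were 0.0442 ± 0.0391 and 10.8 ± 7.09 CPM (SD, n = 3). The summed counts, 4 in WT against 1035 in KD, gave a depth-adjusted ratio of 243 with a 95% counting interval of 94.8 to 895. The fitted log2 fold change was 7.79 ± 0.89 (SE), a value that depends on the prior count used for genes near 0. In bulk RNA, more cells with the transcript and more transcript per cell cannot be told apart. Of the 50-base sequences in the HCP5 exons, 98.5% occur once in the genome.

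ERVWE2, the exon within ERVFC1, had 0, 1 and 0 expected counts in WT and 99, 142 and 490 in KD. Its levels were 0, 0.0290 and 0 CPM in WT and 3.08, 4.80 and 14.99 CPM in KD, again with no overlap. The means were 0.00967 ± 0.0167 and 7.63 ± 6.44 CPM. The summed counts of 1 and 731 gave a ratio of 688, but with only 1 WT count the 95% counting interval ran from 123 to 27200. The fitted log2 fold change was 8.98 ± 1.12, with 7.97 from limma-voom, 8.04 without KD replicate 3 and 10.83 without WT replicate 2, the library that held the 1 WT count. All 1706 of the 50-base sequences in the exon occur once in the genome, so a read that matches it perfectly over 50 bases has no other place.

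A level of at most 3 counts in every WT library with at least 1 CPM in every KD library, as both genes had, was found in 14 of the tested genes (0.0897%). Both genes were chosen with this difference known, so the share is a description and no test of them. The KD libraries of HCP5 and ERVWE2 were not ordered alike. HCP5 was highest in KD replicate 1 and lowest in KD replicate 2, whereas ERVWE2 was highest in KD replicate 3 and lowest in KD replicate 1. The ratio of HCP5 to ERVWE2 CPM was 6.04, 0.986 and 0.606 in KD replicates 1 to 3. The coefficient of variation over the KD libraries was 65.6% for HCP5 and 84.4% for ERVWE2. Among genes within 2-fold of their KD level, the median coefficient was 25.2% (3625 genes) and 28.9% (3337 genes), and 96.1% and 97.8% of those genes varied less.

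ERVK13-1, a non-coding gene of the HERV-K group, was well above the floor in every library. Its expected counts were 210, 183 and 157 in WT and 147, 144 and 148 in KD, and its levels were 7.81, 5.31 and 5.71 CPM in WT and 4.59, 4.88 and 4.53 CPM in KD. The lowest WT library was above the highest KD library, and such a separation with KD below WT was found in 10.5% of tested genes. The means were 6.27 ± 1.34 and 4.67 ± 0.191 CPM, with a log2 fold change of -0.43 ± 0.39 that did not pass the threshold. The KD libraries lay unusually close together, with a coefficient of variation of 4.08%, and 1.10% of 2903 genes of like level varied less. The ERVK13-1 counts are less certain than those of the other genes, because only 72.9% of its 50-base sequences occur once in the genome and the others occur at up to 77 places. RSEM divides reads of such sequences between genes, which left fractions of a read in all 6 values.

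ERV3-1, which encodes the envelope of the HERV-R group, had 13, 27 and 0 expected counts in WT and 0, 26 and 10 in KD. The levels were 0.484, 0.783 and 0 CPM in WT and 0, 0.880 and 0.306 CPM in KD, so the conditions overlapped and each had a library at 0. The log2 fold change of -0.10 ± 1.91 carried an error too wide to give a direction. ERVMER34-1, which encodes the envelope protein known as HEMO, had 2, 8 and 18 counts in WT and 0, 0 and 6 in KD. It did not pass the filter, and its means of 0.321 ± 0.300 and 0.0612 ± 0.106 CPM overlapped in their libraries, with the highest KD library at 0.184 CPM and the lowest WT library at 0.0745 CPM. For ERV3-1 the difference of -0.0273 CPM was smaller than the SD of either condition (0.395 in WT, 0.447 in KD). For ERVMER34-1 the difference of -0.259 CPM was smaller than the WT SD of 0.300 but larger than the KD SD of 0.106. The depth-adjusted ratio of summed counts was 0.847 for ERV3-1 (counting interval 0.524 to 1.36). For ERVMER34-1 it was 0.202 (counting interval 0.0683 to 0.496), an interval wholly on the side of lower KD counts. These intervals leave out the spread between libraries.

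The order of the genes was compared as CPM per kilobase of the annotated canonical transcript, which may differ from the gene models used for counting. In WT, ERVK13-1 led with a mean level of 3.95 CPM per kilobase, followed by ERV3-1 at 0.132, ERVMER34-1 at 0.0887, HCP5 at 0.0220 and ERVWE2 at 0.00551. The lowest ERVK13-1 library (3.35) was above the highest library of ERV3-1 (0.244), while each further gene overlapped the next in that order. In KD, HCP5 came first at 5.39 CPM per kilobase, then ERVWE2 at 4.35, ERVK13-1 at 2.94, ERV3-1 at 0.123 and ERVMER34-1 at 0.0169. The libraries of HCP5 (2.36 to 9.28) and ERVWE2 (1.76 to 8.54) overlapped each other, and both overlapped ERVK13-1 (2.85 to 3.08). ERV3-1 reached 0.274 at most, below every ERVK13-1 library, and overlapped ERVMER34-1.

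The genes next to each of the 5 were then examined. MICA and MICB, which encode stress-induced ligands of the NKG2D receptor, are the nearest tested genes to HCP5, 47.85 kb and 15.95 kb away on GRCh37. MICA was at 34.2, 30.9 and 31.3 CPM in WT and at 47.7, 55.8 and 52.2 CPM in KD, which gave a log2 fold change of 0.69 ± 0.19 and an adjusted p of 0.106. MICB was at 30.6, 48.8 and 55.1 CPM in WT and at 63.5, 66.3 and 91.2 CPM in KD, which gave 0.72 ± 0.26 and an adjusted p of 0.221. For each gene the conditions did not overlap, a separation with KD above WT found in 11.8% of tested genes, and both genes passed the threshold when the replicate number was added as a block, with edgeR adjusted p of 0.032 for MICA and 0.0252 for MICB. The fitted differences of both were small beside the 7.79 of HCP5. The non-coding gene ENSG00000288587 overlaps the HCP5 start on the same strand and has no row in the table used here, and the pseudogene XXbac-BPG181B23.6 overlaps it on the other strand and was at 0 in every library.

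Around ERVWE2 the nearest tested genes were distant. DIAPH2, a formin that organises actin, ends 242.3 kb before it and had a log2 fold change of 0.01 ± 0.49 (adjusted p = 0.995). TSPAN6, a tetraspanin, lies 2778 kb beyond it at -0.38 ± 0.26 (adjusted p = 0.586). Neither neighbour passed the test in this fit or with the block.

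At ERVK13-1, KCTD5, a substrate adaptor of a cullin ubiquitin ligase, starts 125 bases away on the opposite strand. It was at 109.8, 174 and 174 CPM in WT and at 229, 252 and 251 CPM in KD, with no overlap between the conditions, a separation with KD above WT found in 11.8% of tested genes. Its log2 fold change of 0.68 ± 0.22 had an adjusted p of 0.171 without the replicate block and 0.0202 with it. PDPK2, a pseudogene 17.92 kb away on the other side, had a log2 fold change of -0.58 ± 0.78 (adjusted p = 0.825).

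ERV3-1 shares its strand and much of its span with ZNF117, a KRAB-type zinc finger gene with which it can be transcribed as 1 unit. ZNF117 had 19.99, 0 and 0 expected counts in WT and 13, 3.01 and 0 in KD, too few to be tested, and reads of the 2 genes cannot always be told apart. The flanking genes ZNF273 (-0.24 ± 0.87, adjusted p = 0.948) and CCT6P3 (-0.50 ± 0.97, adjusted p = 0.886) did not pass the test.

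Among the tested neighbours of the 5 genes, only DANCR passed the test without the block. DANCR is a long non-coding RNA gene known for keeping progenitor cells undifferentiated, and its end overlaps that of ERVMER34-1 on the opposite strand. It was at 17.0, 28.6 and 24.2 CPM in WT and at 1.68, 5.95 and 5.11 CPM in KD. It fell from a mean of 23.2 ± 5.87 to 4.25 ± 2.26 CPM, with a log2 fold change of -2.45 ± 0.46 and an adjusted p of 0.0264. The call was lost when any one of WT replicates 2 and 3 or KD replicates 2 and 3 was left out (adjusted p of up to 0.108), with log2 fold changes between -2.77 and -2.06 over the 6 fits. With the replicate block the log2 fold change was -2.59 (edgeR adjusted p = 0.000522). The kit marked strand, but the strand setting of the counting is not given in the sources used here, so reads where the genes overlap may not have been told apart. The overlapping rows RP11-752D24.3, SNORA26 and AC104066.1, were at 0 throughout, and RP11-177B4.1 and RASL11B on either side had log2 fold changes of -0.16 ± 1.94 (adjusted p = 0.986) and 0.14 ± 0.96 (adjusted p = 0.973).

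**Figure D2:**
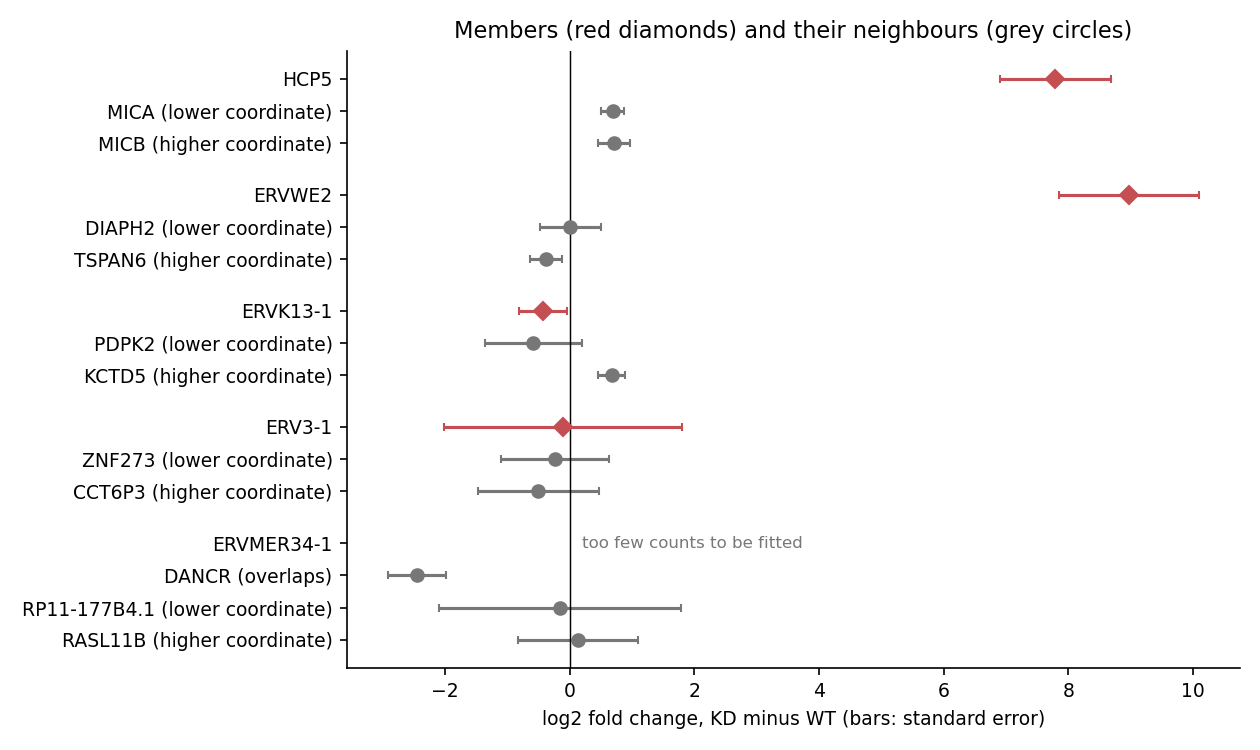
Log2 fold change (KD minus WT) with its standard error for the genes described (red diamonds) and their overlapping or nearest tested neighbours (grey circles). HCP5 at 7.79 and ERVWE2 at 8.98 stand far from their own neighbours, which lie between -0.38 and 0.72, and DANCR is at -2.45.

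The other genes named for endogenous retroviruses were examined next, 10 in the table. Of these, 3 passed the filter, and none was called in either direction by edgeR, DESeq2 or limma-voom, with 0 at an unadjusted p under 0.05 in each. ERVK3-1 was at 50.01, 76.2 and 80.9 CPM in WT and at 59.8, 56.8 and 96.6 CPM in KD, and its log2 fold change was 0.04 ± 0.27 (adjusted p = 0.971). HHLA3, whose transcript ends in a retroviral LTR, had a log2 fold change of -0.17 ± 0.39 (adjusted p = 0.908). Untested for low counts, syncytin-1's gene ERVW-1 was at 1.25, 0.607 and 0 CPM in WT and at 0, 0.271 and 0 CPM in KD, and only 73.4% of its 50-base sequences occur once in the genome. The trophoblast markers CGA, GCM1 and ERVFRD-1 together came to at most 0.319 CPM in any library.

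A further list held host genes mostly derived from retrotransposon gag or protease sequences, such as PEG10 and the PNMA family. Of its 22 genes, 16 were tested and none was called by edgeR, DESeq2 or limma-voom (3, 4 and 3 at an unadjusted p under 0.05). Their log2 fold changes lay between -1.35 and 1.68, with a median of 0.19. Over all tested genes the median was -0.03. The most abundant were LDOC1L at 0.19 ± 0.24 (adjusted p = 0.814) and FAM127A at -0.32 ± 0.22 (adjusted p = 0.593).

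Of 40 genes of retroelement silencing and related chromatin functions, TET1, TET2 and TET3 included, 39 were tested, 1 fell and none rose. The median log2 fold change was -0.23, with 8 of the 39 above 0. The gene that fell was HELLS, a chromatin remodeller needed for DNA methylation of repeats, at 14.3, 13.6 and 9.39 CPM in WT and at 5.04, 3.05 and 3.24 CPM in KD. Its log2 fold change was -1.72 ± 0.37 (adjusted p = 0.0451), and it was not called when any one of the 6 libraries was left out (adjusted p of up to 0.201), with log2 fold changes between -1.98 and -1.59. With the replicate block 6 of the 39 were called, all lower, where the block called 9.52% of all tested genes, 5.1% as higher and 4.42% as lower. Beside HELLS these were CBX3 and CBX5, which encode heterochromatin proteins, the deacetylase gene HDAC1, the remodeller gene ATRX and KIAA1551, with blocked log2 fold changes from -0.60 for HDAC1 to -1.29 for KIAA1551. These 5 are named after their values were seen.

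Of 22 tested genes that restrict retroviruses, 11 rose and none fell in the fit without the block, with a median log2 fold change of 1.12. The block called 13 higher and 1 lower, the latter APOBEC3G, a cytidine deaminase gene named after its value was seen, at -1.41 (adjusted p = 0.0127, and 0.316 without the block). A lower call also appeared without WT replicate 1 (11 higher, 1 lower) and with no filter on low counts (13 and 2). IFITM1, which blocks viral entry at the membrane, rose from 5.16 ± 1.60 to 222 ± 56.9 CPM (log2 fold change 5.42 ± 0.33, adjusted p = 4.97e-05). TRIM22, an interferon-induced inhibitor of viral transcription, rose from 1.41 ± 0.862 to 51.3 ± 22.7 CPM (5.20 ± 0.56, adjusted p = 0.00116). SAMHD1, which depletes the nucleotides needed for reverse transcription, had a log2 fold change of 2.98 ± 0.32 (adjusted p = 0.0011), and IFITM3 one of 2.59 ± 0.29 (adjusted p = 0.00145). All 4 were called in every fit that left out a library. The IFITM genes resemble each other, so reads may be divided between them.

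Of 15 sensors of double-stranded RNA, adaptors such as MAVS and related genes, 10 rose, none fell and the median log2 fold change was 3.53. ADAR, among those that rose, is counted in the restriction list as well. OAS1 and OAS2, which make the 2-5A messenger that activates RNase L, had log2 fold changes of 4.41 ± 0.23 and 4.56 ± 0.25 (both with an adjusted p of 2.08e-05). OASL, a relative that assists RIG-I, had 5.44 ± 0.69 (adjusted p = 0.00317). DDX58, the gene of RIG-I itself, went from 3.26 ± 1.21 to 63.8 ± 17.8 CPM (4.28 ± 0.36, adjusted p = 0.000236).

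Around HCP5 in the MHC, 12 of 18 genes with a row were tested and 2 rose, HLA-B with a log2 fold change of 2.88 ± 0.35 (adjusted p = 0.00227) and HLA-C with 1.92 ± 0.26 (adjusted p = 0.00412), both of which encode class I heavy chains that present peptides to CD8 T cells. The median of this stretch was 0.49, and the block raised the count from 2 to 5, adding MICA, MICB and NFKBIL1, the last named after its value was seen. In the list of MHC class I genes, 9 of 15 tested rose and none fell, with a median of 1.92. Its largest rises beside HLA-B were in HLA-F (2.79 ± 0.25, adjusted p = 0.000374), in NLRC5, the class I transactivator (19.3 ± 3.88 to 126 ± 33.0 CPM, adjusted p = 0.000645), and in B2M, the light chain (2.16 ± 0.24, adjusted p = 0.00132). The class I heavy chain genes resemble each other closely, so the division of reads between them is uncertain. HLA-B ranked KD replicates 1, 3 and 2 from high to low, at 2085, 1725 and 1052 CPM, the order in which HCP5 stood. Other genes of the list ranked them otherwise, with B2M at 1752, 1308 and 1072 CPM and NLRC5 at 99.2, 115 and 163 CPM in KD replicates 1 to 3.

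The zinc finger genes near ERV3-1 gave 6 tested of 9 in the table, with none called by edgeR, DESeq2 or limma-voom, 0 at an unadjusted p under 0.05 in each, log2 fold changes from -1.40 to -0.24 and a median of -0.50. With the block, 3 of the 6 lay slightly above 0, ZNF92 at 0.01, ZNF107 at 0.05 and ZNF273 at 0.0047. The most abundant, ZNF92 and ZNF107, had log2 fold changes of -0.27 ± 0.77 (adjusted p = 0.926) and -0.36 ± 0.82 (adjusted p = 0.904). Of the envelope receptors and fusion factors, 5 of 6 were tested and none was called by edgeR or limma-voom (2 at an unadjusted p under 0.05 in each), while DESeq2 called 2. SLC1A5, the amino acid transporter that serves as the syncytin-1 receptor, was at 0.67 ± 0.21 (adjusted p = 0.149, and 0.0153 with the block), and CD9 was at -0.19 ± 0.19 (adjusted p = 0.751). The block called 2 of this list, SLC1A5 and FURIN, the envelope-cleaving protease gene, which is named after its value was seen.

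**Figure D3:**
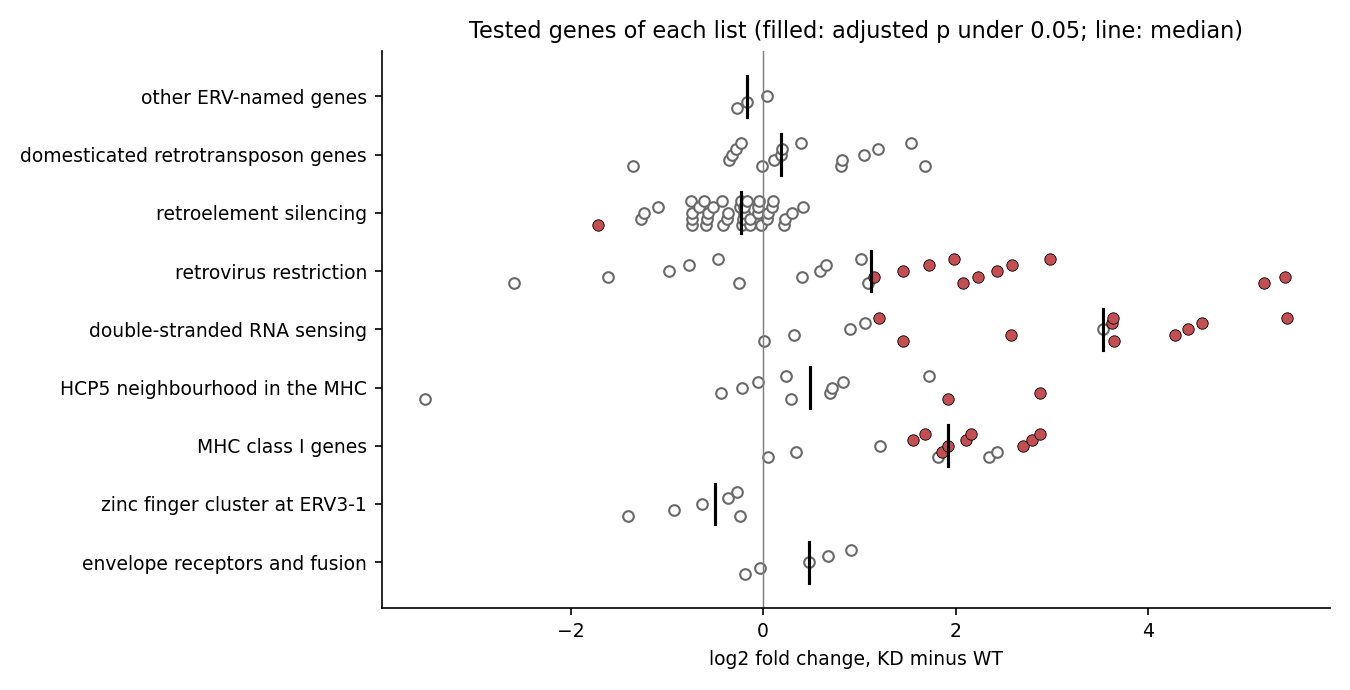
Log2 fold change (KD minus WT) of each tested gene in the 9 lists, filled where the edgeR adjusted p was under 0.05, with a line at the median of the list. Filled points crowd the lists for retrovirus restriction (11 of 22), double-stranded RNA sensing (10 of 15) and MHC class I (9 of 15). The other ERV-named genes hold none and the silencing list 1.

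Finally, the genes whose level followed each gene most closely over the 6 libraries were found among 13535 genes with a mean of at least 1 CPM, by Pearson's r of log2(CPM + 0.1). With 6 libraries in 2 conditions, any gene that separates the conditions strongly reaches a high r with HCP5 or ERVWE2, and the values are a description. For HCP5 the closest was IFIT3, an interferon-induced antiviral gene (r = 0.999), at 8.91, 9.22 and 6.26 CPM in WT and 272, 114 and 186 CPM in KD. It placed the KD libraries in the same order as HCP5. Next came KIF6, a kinesin gene (r = 0.998), and VGF, which encodes a secreted neuropeptide precursor (r = 0.997).

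For ERVWE2 the closest were ID2, an inhibitor of DNA-binding helix-loop-helix factors (r = 0.997), SLC5A2, a sodium-glucose cotransporter gene (r = 0.994), and SMG8, a factor of nonsense-mediated decay (r = 0.994). SLC5A2 was at 0 in all 3 WT libraries and at 1.45, 2.17 and 3.12 CPM in KD replicates 1 to 3. All 3 genes had KD replicate 3 highest and KD replicate 1 lowest, as ERVWE2 had. ERVK13-1 was followed by BBC3, which encodes the apoptosis protein PUMA (r = 0.999), RP11-551L14.1 (r = 0.991) and TMED10, a cargo receptor of the secretory pathway (r = 0.990), each highest in WT replicate 1. ERV3-1 was followed by RP4-773N10.4 (r = 0.990), HEY2, a transcriptional repressor downstream of Notch (r = 0.982), and IGF1R, a growth factor receptor (r = 0.981), with log2 fold changes between -0.02 and 0.14. No gene was shared between these 4 sets of 3.

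**Figure D4:**
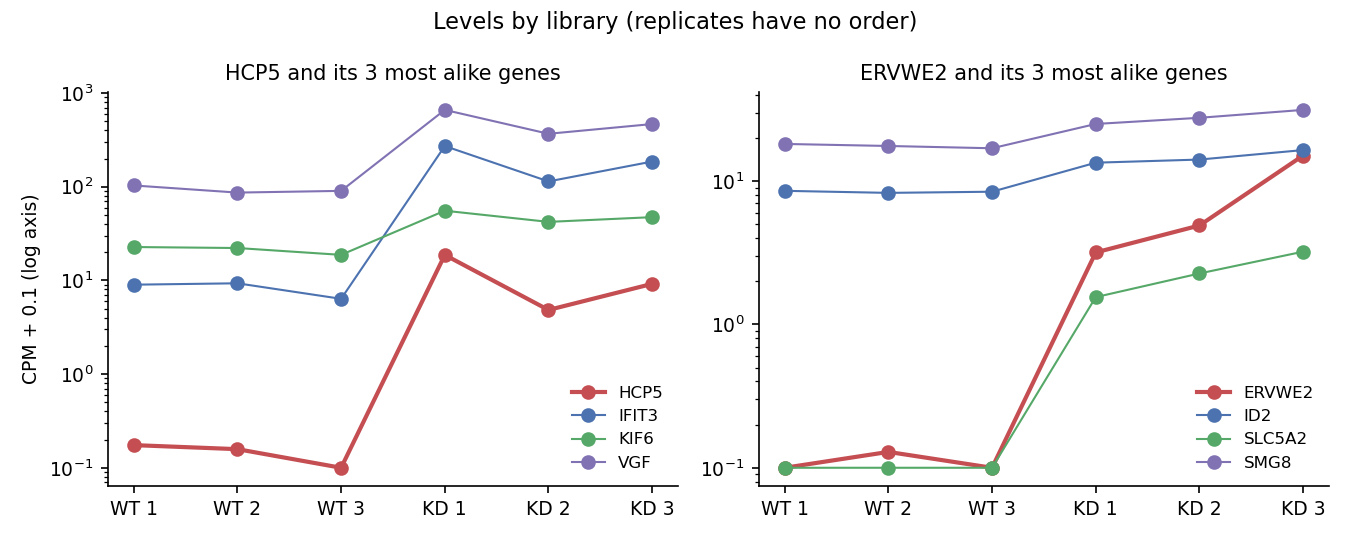
CPM + 0.1 on a log axis in each library for HCP5 and ERVWE2 (thick red lines) and the 3 genes most alike to each; the lines join libraries only to guide the eye. HCP5 and IFIT3 peak in KD replicate 1, while ERVWE2 and SLC5A2 peak in KD replicate 3 at 14.99 and 3.12 CPM.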

How the data were processed

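Polyadenylated RNA of M14 was made into 3 WT and 3 KD directional libraries. Reads were aligned with STAR to hg19 by the authors, who deposited RSEM expected counts per gene, neither scaled nor filtered, in which a read matching several genes is divided between them. The annotation behind the counts is not given in the sources used here. In this work the expected counts were rounded to whole numbers, 15605 of 57820 genes were kept by filterByExpr, and libraries were scaled by TMM (edgeR 4.0.16, R 4.3.3). KD and WT were compared by the quasi-likelihood test of edgeR, and p-values were adjusted across every gene tested (Benjamini-Hochberg), at an adjusted p under 0.05. The SE of a log2 fold change was calculated back from the fold change and the F statistic of that test. It is approximate, above all for genes near 0 in a condition. CPM use the unrounded counts and the TMM-scaled library sizes.

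The 5 genes and the gene lists were chosen with earlier results of these data known. Named beside the 5 were their overlapping and nearest tested genes, STAG2, IRF9, up to 4 largest rises and falls called per list (otherwise the 2 most abundant), and the 3 most alike genes. Any other was named after its values were seen. Sequences of 50 bases were searched on both strands of GRCh37, positions are from GENCODE lifted to that build, and promoter windows are from RefSeq (GRCh38.p14), which was given for all 5 genes once ERVFC1 stood in for ERVWE2.

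Alternatives were DESeq2 1.42.0, upper-quartile scaling, limma-voom (limma 3.58.1), a minimum of 10 counts per library or no filter, an adjusted p under 0.01, a block for the replicate number, omission of each library in turn, and 1 mismatch in the ISRE core. Same-numbered WT and KD libraries deviated together from their group means (Pearson r of 0.58, 0.459 and 0.364 for numbers 1 to 3 over 8932 genes). The other-numbered pairs WT 2 with KD 3 (0.287) and WT 3 with KD 2 (0.168) were positive too, so numbers 2 and 3 are less distinctly paired. The remaining pairs lay between -0.534 and -0.366. For the replicate block the numbers were taken to pair the libraries, although the labels state no shared day or batch. The main edgeR fit did not pair them. The fit was also run on simulated data, whose changes were far smaller than those fitted for HCP5 and ERVWE2. That run therefore does not cover genes such as these. No library was a copy of another.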

Additional observations from a re-analysis of the deposited data

How the results depend on the processing

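Under the alternatives computed for them, the level differences of HCP5, ERVK13-1 and ERV3-1 moved by less than their replicate spread, and no called result changed direction. Uncalled values could change sign, among them ERV3-1 (0.69 without WT replicate 2), ZNF92 (0.49 without WT replicate 1), ZNF107 and ZNF273. Values of the 5 genes and the list counts were not computed under the minimum of 10 counts, which HCP5, ERVWE2 and ERV3-1 would not pass. Leaving out 1 library gave log2 fold changes of 7.15 to 8.22 for HCP5, 8.04 to 10.83 for ERVWE2, -0.54 to -0.25 for ERVK13-1 and -1.44 to 0.69 for ERV3-1, and a difference of -0.382 to -0.0921 CPM for ERVMER34-1. Limma-voom gave 7.97 for ERVWE2 and called 0 of the 5 genes (2 at an unadjusted p under 0.05), against 2 in the edgeR fit and in each fit without 1 library. Calls over all genes depended on the processing: 404 in edgeR, 1000 with DESeq2 (555 higher, 445 lower), 1103 with no filter (573 and 530), 137 at an adjusted p under 0.01 (116 and 21) and 121 to 531 without 1 library, the latter without WT replicate 1 and the former without KD replicate 3. The replicate block gave 1486 calls (796 higher, 690 lower). By list, with the replicate block the calls were 6 for silencing, 5 for the HCP5 neighbourhood, 2 for envelope receptors, 14 for restriction (13 higher, 1 lower), 11 for MHC class I and 11 for double-stranded RNA sensing. DESeq2 called 2 genes in the silencing list and 2 in the envelope receptor list. No filter gave 3 calls in the silencing list, 1 in the envelope receptor list and 1 in the list of mostly retrotransposon-derived genes. Without 1 library the silencing list had 0 calls throughout. The causes were not tested. With 1 mismatch the ISRE core matched 2 times in the ERVWE2 window and 1 time in a window of ERV3-1. Of 21 named genes called, 16 to 20 stayed called without 1 library. Depth limits ERV3-1 and ERVMER34-1, whose libraries held 0 to 27 and 0 to 18 counts. It also limits the WT levels of HCP5 and ERVWE2, at 2 counts or fewer.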
